A study of Mus musculus with 12 samples.

Results

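The comparison was between injured cortex of mice with a conditional deletion of STING in Cx3cr1-expressing cells and injured cortex of mice without it. STING, the product of Tmem173, is the adaptor that turns DNA in the cytosol into a signal: the sensor cGAS makes cyclic GMP-AMP, STING binds it and recruits the kinase TBK1, and IRF3 and NF-kB then switch on type I interferons and inflammatory genes. In brain tissue Tmem173 RNA is found mainly in microglia, the resident macrophages, and also in border macrophages, blood leukocytes and endothelial cells. After a contusion, microglia and vessel walls make cytokines and adhesion molecules within hours, and neutrophils are the first blood cells to follow. The series asks, by its title, about acute STING signals and neutrophil entry after brain injury.

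All libraries came from mice treated with CCI (controlled cortical impact, a piston contusion of the exposed cortex), sampled at 2 hr. The genotype label of the 3 deleted libraries, called cKO here, was CX3CR1cre-er/+ STING fl/fl, and that of the 3 control libraries, called wt here, was CX3CR1cre-er/+. Both groups therefore carried 1 copy of the Cre allele inserted in Cx3cr1, and only the cKO group carried the floxed STING alleles. Cre-ER needs tamoxifen to act, and neither tamoxifen nor its timing is in the labels. The series' own design text writes the Cre of the deleted mice without the ER part, and the text here keeps to the sample labels. Ipsilateral is the injured side, and these 6 of the 12 libraries of the series were compared across all genes. The other 6 are contralateral cortex of the same genotypes, used here for the side-by-side values and, in the fit, for the shared estimate of spread. There was no uninjured mouse among the groups, and the labels give no age. The labels number the libraries 1 to 3 in each group but do not say that each was a separate animal, so the spread behind every p-value is that among these libraries and may be technical.

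The 3 wt libraries held 23875200 to 25308000 counts in all (totals rounded to 6 digits). Of the cKO libraries, library 1 held 27082300, library 2 held 25711100 and library 3 only 7958930 counts. That last library also stood apart from the other 5 on the first principal component (37.6% of the variance), at 54.5 against -13.8 to -6.19. The neuronal noncoding RNA Bc1 was at 10548 TPM (the authors' length-scaled unit) in it and at 83028 to 165331 TPM in the others. A count of 3, taken as the floor of measurement, was worth 0.373 CPM (counts scaled to a common library size with the trimmed mean of M values, not per gene length) in that library and 0.108 to 0.129 CPM in the other 5, which covers counting error only. Values without it are given beside the results that it moved most. Tbr1, a marker of cortical neurons, was present in all 6 libraries at 116 to 163 CPM. Hemoglobin transcripts summed to 593 to 920 CPM in the cKO libraries and 588 to 2078 CPM in the wt libraries. Microglial, leukocyte and other markers are described with the results they touch.

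Tmem173 itself (chr18:35733679-35740554 in mm10, minus strand) was at 1.05, 2.44 and 1.24 CPM in cKO libraries 1, 2 and 3, from 29, 61 and 10 counts. In the wt libraries it was at 2.34, 3.69 and 2.72 CPM, from 57, 86 and 66 counts. The lowest values were in cKO libraries 1 and 3, but cKO library 2 lay above wt library 1, so the groups overlapped. The log2 difference, cKO minus wt as in all that follows, was -0.84 ± 0.35 (standard error of the fit), with a 95% interval of -1.59 to -0.08. By the quasi-likelihood test of edgeR, adjusted over all genes by the Benjamini-Hochberg method, its adjusted p was 0.816, although it was among the genes under 0.05 before adjustment. An exact two-sided permutation test of the 6 values gave p = 0.2, where 3 against 3 libraries cannot give less than 0.1. Leaving out each of the 12 libraries in turn moved the log2 difference between -1.39 and -0.54. On the contralateral side the difference was -1.16 ± 0.35, and the difference between the sides was 0.32 ± 0.50. The counts are for the whole gene, and the deleted exons were not looked at separately.

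Cx3cr1, the fractalkine receptor whose locus carries the Cre in both groups, was at 14.1, 19.8 and 18.3 CPM in the cKO and 19.3, 21.8 and 20.8 CPM in the wt libraries. Only cKO library 2 reached the wt range. The log2 difference was -0.26 ± 0.12 (95% interval -0.52 to 0.01, edgeR adjusted p = 0.866), and the same exact permutation test gave p = 0.2. Its annotated span overlaps other genes, so some reads may not be its own.

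No gene passed the adjusted p of 0.05 in injured cortex. Of 16836 genes tested, edgeR's quasi-likelihood test called 0 (0%), with a smallest adjusted p of 0.577. At an unadjusted p under 0.05 there were 987 genes (5.86%), of which 476 (2.83%) were higher and 511 (3.04%) lower in cKO, where 841.8 would be expected from uniform p-values. The log2 difference was above 0 for 50.4% of genes and below 0 for 49.6%. In 943 genes (5.6%) all cKO libraries lay above all wt libraries, and in 1009 (5.99%) all lay below. DESeq2 on the same counts called 12 genes (0.0713%), 9 higher and 3 lower. Among them were Plin4, Hif3a, Cdkn1a, Fkbp5, Map3k6, Dpysl5, Adgrl2, Rasd2 and Scn4b, all described below, with the gut hormone receptor Glp2r (1.01 ± 0.23 by edgeR) and the predicted gene Gm21541. The last was at 0 in the wt libraries and in cKO library 3, so its call rests on cKO libraries 1 and 2. Of 14788 genes at 1 CPM or more on average, 94.2% had a 95% interval inside 2-fold in both directions and 77.9% inside 1.5-fold. Values are therefore given for every gene below without a call. For each gene list, counts of higher and lower genes are at an unadjusted p under 0.05 and are set against the 2.83% higher and 3.04% lower over all genes, and each list's median against an all-gene median of 0.0014.

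**Figure D1:**
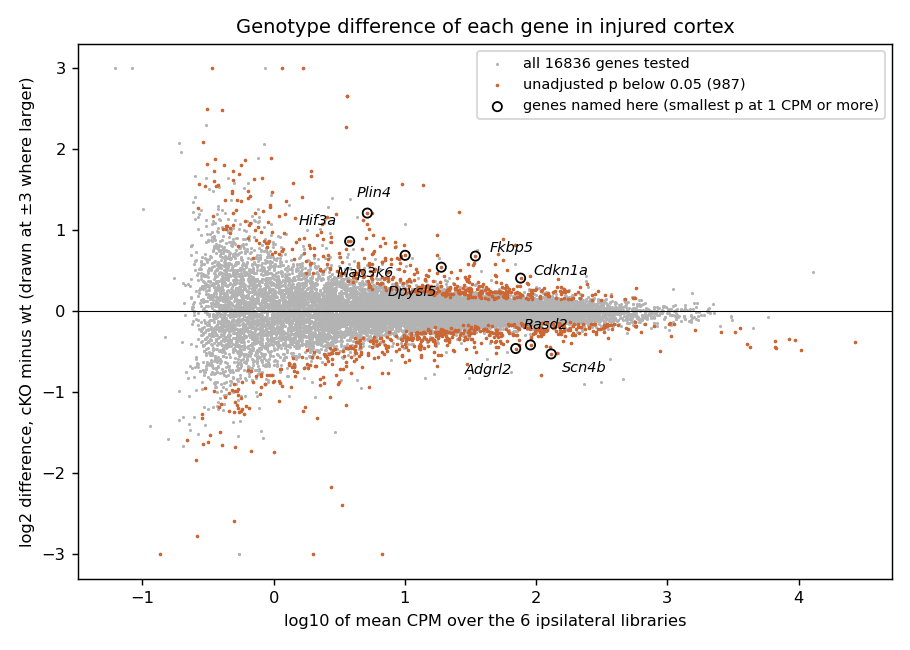
Each point is 1 of the 16836 genes tested, placed by its mean level over the 6 ipsilateral libraries (log10 CPM, x axis) and its log2 difference between cKO and wt (y axis, values beyond 3 drawn at 3). The 987 genes with an unadjusted p under 0.05 are orange and 9 of the 10 with the smallest p among genes at 1 CPM or more are circled and named; most genes at high levels lie within 0.5 of 0.

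The pathway around STING showed no common direction. Of 25 genes listed, 21 were measured: 11 lay above 0 and 10 below, with a median of 0.01. At an unadjusted p under 0.05 there were 0 higher and 2 lower, Tmem173 itself and Enpp1, the ectoenzyme that breaks down extracellular cyclic GMP-AMP. The count lower was 0 without cKO library 1, cKO library 3 or wt library 2, and 1 without wt library 3. Enpp1 was at 3.6, 4 and 3.48 CPM in cKO and 4.3, 4.68 and 5.1 CPM in wt, without overlap (-0.33 ± 0.14, edgeR adjusted p = 0.823). Of the sensors, Cgas, which makes the STING ligand, was at 0.577, 0.641 and 0.498 CPM in cKO and 0.778, 0.987 and 0.699 CPM in wt. The groups did not overlap, yet the standard error was wide (-0.48 ± 0.36). Aim2, a DNA sensor of the inflammasome, lay the other way without overlap (1.98, 1.64 and 1.37 against 0.942, 1.33 and 1.19 CPM, 0.56 ± 0.31). Of the signal's carriers, the kinase Tbk1 was at 33.7, 31 and 34.1 CPM in cKO and 31.6, 28.8 and 33.4 CPM in wt, a difference of 0.07 ± 0.08. The transcription factor Irf3 differed by -0.04 ± 0.15, and Trex1, the exonuclease that removes cytosolic DNA, by 0.02 ± 0.17. Ifnb1 had 0 counts in all 6 libraries, which allows a level of up to the floor given above.

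Interferon-inducible genes, the usual readout of IRF3 and type I interferon, lay on both sides of 0. Of 40 listed, 37 were measured, 21 above 0 and 16 below, with a median of 0.03 (-0.01 without cKO library 3). The 95% interval lay inside 2-fold for 27 of the 37. Summed over the list, the level was 259 to 315 CPM in cKO and 258 to 302 CPM in wt. The most abundant was B2m, the light chain of MHC class I, at 76.4, 80.2 and 86.8 CPM in cKO and 79.3, 84.5 and 93.3 CPM in wt (-0.08 ± 0.08). Isg15, a ubiquitin-like modifier, differed by -0.0038 ± 0.27, and Cmpk2, a mitochondrial nucleotide kinase, by -0.06 ± 0.10. Ifit3, an antiviral protein that shares sequence with its neighbour Ifit3b, was at 12.4, 8.09 and 11.9 CPM against 7.83, 9.31 and 12.3 CPM (0.12 ± 0.17).

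At an unadjusted p under 0.05 the interferon list had 1 gene higher and 1 lower (2.7% each), beside 2.83% and 3.04% of all genes. Both counts were 0 without cKO library 3. Leaving out each of the other ipsilateral libraries gave 0 to 3 higher and 0 to 1 lower. Irgm1, an interferon-inducible GTPase, was at 16, 13 and 19.9 CPM in cKO and 12.5, 11 and 12.7 CPM in wt. All cKO values lay above all wt values, with a difference of 0.40 ± 0.14 (edgeR adjusted p = 0.754). Ddx60, an antiviral helicase, lay below without overlap, at 0.216, 0.481 and 0.249 CPM in cKO and 0.656, 0.987 and 0.699 CPM in wt (-1.24 ± 0.54, 95% interval -2.39 to -0.09). Ddx60 was low throughout, and the cKO library 3 value was under the floor of 3 counts. In 3 further genes every cKO value lay above every wt value, which makes 4 of 37 above and 1 of 37 below without overlap, beside 5.6% and 5.99% of all genes. Irf9, the DNA-binding part of the interferon-activated complex, differed by 0.27 ± 0.13 (95% interval -0.01 to 0.55), Tap1, the peptide transporter for MHC class I, by 0.39 ± 0.20 (95% interval -0.03 to 0.80), and Oas2, an RNA-sensing enzyme, by 0.90 ± 0.45 (95% interval -0.07 to 1.86).

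Irgm1 and Ddx60, the 2 members at an unadjusted p under 0.05, both hold the letters of the interferon-stimulated response element near their start. Their promoter stretches are shown for that reason only. Neither gene was called by edgeR, and the list's shares were near those of all genes. The motif searched was GAAA, then 2 bases of any kind, then GAAA, on either strand, in a window of 250 bases before to 50 after each annotated start (RefSeq, GRCm38.p6). It was in the windows of 18 of the 31 listed genes that had one, and in 3.99% of all 27025 genes. Capitals mark the match, and each stretch is read 5′ to 3′ on the gene's strand, Irgm1 from chr11:48871421-48871480 (minus) and Ddx60 from chr8:61928004-61928073 (plus). A match describes the letters and is no evidence of binding in these samples.
Irgm1: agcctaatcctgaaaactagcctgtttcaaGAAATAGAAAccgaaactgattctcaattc
Ddx60: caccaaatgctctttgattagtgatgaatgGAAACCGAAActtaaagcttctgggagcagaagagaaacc

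Several vessel adhesion molecules and factors that call in neutrophils had their highest values in cKO libraries 1 and 2. Of 24 measured genes of endothelial activation, 5 were higher (20.8%) and 0 lower at an unadjusted p under 0.05, 19 lay above 0, and the median was 0.13. Without cKO library 3 there were 8 higher and 0 lower and the median was 0.25. Leaving out any 1 of the other ipsilateral libraries gave 3 to 7 higher and 0 lower.

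Selp, P-selectin, which catches rolling leukocytes on the vessel wall, was at 3.82, 3.76 and 1.12 CPM in cKO libraries 1, 2 and 3 and at 0.819, 1.16 and 0.905 CPM in wt. Libraries 1 and 2 of cKO were the 2 highest by far, while library 3 lay within the wt range. The difference was 1.67 ± 0.44 (95% interval 0.73 to 2.62, edgeR adjusted p = 0.712), and 1.98 without cKO library 3. Sele, E-selectin, was low in all libraries, at 1.66, 1.4 and 0.622 CPM in cKO and 0.246, 0.3 and 0.699 CPM in wt (1.65 ± 0.50, 95% interval 0.59 to 2.71). The same order held, with cKO libraries 1 and 2 above all wt libraries and library 3 below wt library 3. Icam1, the ligand of leukocyte integrins, was at 53.8, 41.3 and 25 CPM in cKO and 24.5, 31.2 and 25.4 CPM in wt, with cKO library 3 inside the wt range. Its difference was 0.60 ± 0.19 (edgeR adjusted p = 0.754), and 0.81 without cKO library 3. Vcam1, the other main integrin ligand, was at 39.2, 38 and 27.7 CPM against 27.4, 31.6 and 31.1 CPM (0.24 ± 0.14).

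In 2 of the 24 genes all cKO values lay above all wt values, a share near the 5.6% of all genes. Adamts9, a secreted metalloprotease, was at 4.18, 4 and 3.48 CPM in cKO and 2.09, 2.49 and 2.59 CPM in wt (0.72 ± 0.22, edgeR adjusted p = 0.751). Apold1, an endothelial early response gene, differed by 0.14 ± 0.11. Ch25h, the enzyme that makes 25-hydroxycholesterol, had the cKO library 3 value within the wt range (7.46, 8.81 and 3.36 against 3.2, 4.29 and 3.42 CPM, 0.91 ± 0.35, 95% interval 0.15 to 1.67).

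Genes driven by NF-kB gave 3 higher (10.7%) and 0 lower of 28 measured, with a median of 0.08, or 4 higher and 1 lower and 0.19 without cKO library 3. Leaving out any 1 of the other ipsilateral libraries gave 2 to 6 higher and 0 lower. Csf3, G-CSF, which mobilises neutrophils from the bone marrow, was at 3.89, 4.24 and 0.622 CPM in cKO and 1.07, 1.07 and 0.699 CPM in wt. Again the first 2 cKO libraries were high and the third was below every wt library. The difference was 1.73 ± 0.48 (edgeR adjusted p = 0.751), and 2.10 without cKO library 3. Il1b, the cytokine released through inflammasomes, was at 14.9, 14.6 and 11.1 CPM against 6.6, 13.6 and 9.67 CPM, with overlap at wt library 2 (0.46 ± 0.21, 95% interval 0.01 to 0.92). Il1a lay the other way in cKO libraries 1 and 2 and not in 3, at 34, 22.5 and 61.8 CPM against 45.6, 45.9 and 57.9 CPM (-0.39 ± 0.31, and -0.82 without cKO library 3). Tnf was at 9.12, 6.21 and 10.9 CPM in cKO and 7.66, 7.81 and 8.64 CPM in wt, a difference of 0.09 ± 0.25, smaller than the spread between libraries. Il6 was at 1.98, 0.881 and 0.124 CPM against 0.41, 0.687 and 0.494 CPM (1.1 ± 0.59, 95% interval -0.16 to 2.36), and Nfkbia, the inhibitor that NF-kB itself induces, differed by 0.22 ± 0.15.

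Among chemokines, 17 of 24 were measured, with 1 higher (5.88%), 0 lower and a median of 0.03, or 1 higher and 1 lower without cKO library 3. The 1 gene was Cxcl1, a ligand of the neutrophil receptor CXCR2, at 11.6, 14.5 and 6.22 CPM in cKO and 4.75, 7.85 and 5.88 CPM in wt. The first 2 cKO libraries were above all wt libraries and the third was inside their range (0.85 ± 0.28, edgeR adjusted p = 0.754; 1.08 without cKO library 3). Cxcl2, another ligand of that receptor, overlapped at 11, 12.9 and 7.21 CPM against 6.02, 10.2 and 9.3 CPM (0.32 ± 0.30). Ccl2, the monocyte attractant, was at 9.84, 8.01 and 8.96 CPM in cKO and 3.52, 7.81 and 7.65 CPM in wt. Its groups did not overlap, but wt libraries 2 and 3 lay just under the lowest cKO value (0.50 ± 0.34, 95% interval -0.23 to 1.23). Ccl3 and Ccl4, made chiefly by microglia soon after injury, were near equal, Ccl3 at 30.2, 24.7 and 36.6 CPM against 31, 26.6 and 24.6 CPM (0.14 ± 0.30) and Ccl4 at 20.4, 15.8 and 18.8 CPM against 20.6, 17.8 and 16 CPM (0.02 ± 0.28). The most abundant member, Cx3cl1, the neuronal ligand of the Cx3cr1 receptor, differed by -0.05 ± 0.10.

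**Figure D2:**
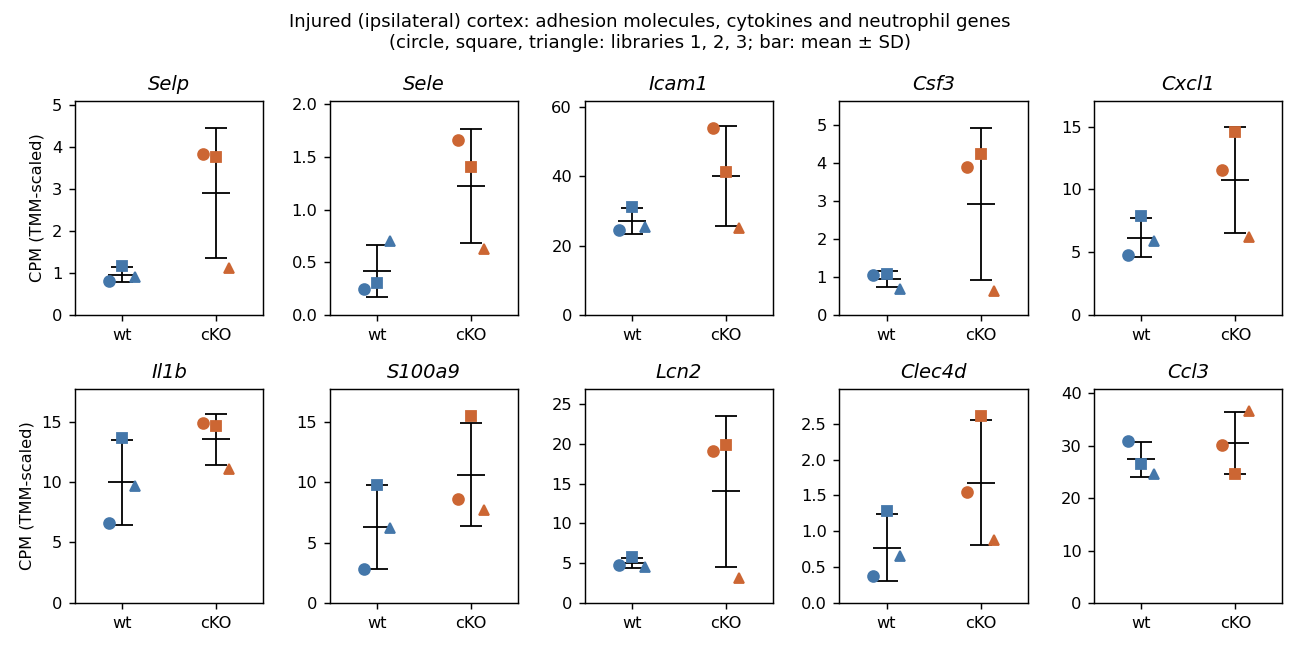
CPM of 10 adhesion, cytokine, chemokine and neutrophil genes in the 3 cKO and 3 wt ipsilateral libraries (y axes from 0; circle, square and triangle are libraries 1, 2 and 3; the line and bar are mean and SD). For Selp, Csf3, Cxcl1, Icam1 and Lcn2 the circle and square of cKO lie above all wt points and the cKO triangle lies near or below them, while the Ccl3 groups overlap throughout.

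Neutrophil markers that passed the filter were higher in cKO on average but not without overlap in any gene. Of 28 listed genes 16 were measured, and the 12 others were under the filter. Those 12 lay in both directions by raw count, not scaled for depth. Ltf had 1, 8 and 3 counts in cKO against 6, 18 and 2 in wt, and Mpo 0, 1 and 0 against 2, 3 and 2. Padi4 had 5, 9 and 0 against 3, 3 and 1, and Fpr2 7, 18 and 0 against 7, 6 and 2. Among the 16, 5 were higher (31.2%) and 0 lower at an unadjusted p under 0.05, and the median was 0.81. Summed over all 28 listed genes, those under the filter included, the level was 62.5, 94.2 and 37.9 CPM in cKO libraries 1, 2 and 3. In wt libraries 1, 2 and 3 it was 25.6, 56.8 and 37.6 CPM. Library 2 was the highest of each group. The count depended on single libraries: it was 0 without cKO library 2 (median 0.18), 1 without wt library 1 (0.42) or without wt library 3 (0.71), 7 without cKO library 3 (0.98) and 10 without wt library 2 (1.24).

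S100a9, a subunit of calprotectin, the main protein of neutrophil cytoplasm, was at 8.65, 15.5 and 7.71 CPM in cKO and 2.79, 9.79 and 6.25 CPM in wt (0.79 ± 0.34, edgeR adjusted p = 0.818). Its partner S100a8 was at 3.93, 8.09 and 2.99 CPM against 1.27, 4.55 and 3.29 CPM (0.77 ± 0.49, 95% interval -0.28 to 1.82). In both genes cKO library 2 was highest and wt library 1 lowest, with the other 4 libraries mixed. Cxcr2, the chemokine receptor of neutrophils, was at 1.05, 1.96 and 0.622 CPM in cKO and 0.369, 0.73 and 0.699 CPM in wt (1.1 ± 0.49). Csf3r, the receptor for G-CSF, differed by 0.34 ± 0.20. Lcn2, a siderophore-binding protein made by neutrophils and also by astrocytes and endothelium, was at 19.1, 19.9 and 3.11 CPM against 4.71, 5.75 and 4.53 CPM. Its first 2 cKO libraries stood well above the rest and the third was the lowest of all 6 (1.57 ± 0.55, 95% interval 0.39 to 2.75). Clec4d, a lectin receptor of myeloid cells, was at 1.55, 2.6 and 0.871 CPM in cKO and 0.369, 1.29 and 0.658 CPM in wt (1.2 ± 0.44), and cKO library 2 was again the highest. Ly6g, the surface marker used to sort neutrophils, had 0 to 1 counts in every library.

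Markers of other blood cells were also looked at. Monocyte and macrophage markers had 0 higher and 0 lower of 13 measured (of 21 listed), with a median of 0.09. All 21 summed to 128 to 146 CPM in cKO and 116 to 154 CPM in wt. The monocyte markers Ly6c2, at 2 to 8 counts in a library, and Ccr2, at 1 to 9 counts, were under the filter. Lymphocyte markers had 0 and 0 of 6 measured, with Cd3e and Nkg7 at 0 to 4 counts. The 9 measured erythroid genes were all below 0, with a median of -0.75 and 0 at an unadjusted p under 0.05. The 14 erythroid genes with deposited counts, those under the filter included, summed to 979.7 to 1324 CPM in cKO and 1025 to 2513 CPM in wt. Of 16 measured platelet genes 1 was higher and 2 lower; the 1 higher was Selp, which platelets also carry, and 1 of the 2 lower was the lipoxygenase Alox12 (-0.86 ± 0.33). There were 0 lower without wt library 2, 3 without cKO library 3 and 4 without wt library 1. The part that blood content had in the values of the adhesion, cytokine and neutrophil genes was not tested.

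Microglia identity genes lay slightly lower in cKO by CPM, with a median of -0.12, but at 0.075 on the TPM scale, where the median of all genes was 0.16. All 26 listed genes were measured, 21 were below 0 by CPM, and 1 was higher (3.85%) and 4 lower (15.4%). The 95% interval lay inside 2-fold for 23 of the 26. Without wt library 1 there were 11 lower (median -0.23) and without cKO library 2 there were 7 (-0.21), while without cKO library 1 there were 2 (-0.043). In homogenised tissue, fewer cells of a type and less RNA per cell cannot be told apart.

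The 4 lower genes were all separated between the groups, as 5.99% of all genes were in that direction. Gpr34, a lysophosphatidylserine receptor of microglia, was at 4.87, 7.33 and 3.86 CPM in cKO and 10.2, 9.23 and 8.85 CPM in wt (-0.76 ± 0.20, 95% interval -1.19 to -0.33, edgeR adjusted p = 0.691). Gpr34 lies within the span of Cask, so reads of that gene could be shared. P2ry12, the ADP receptor that steers microglial processes to injured tissue, was at 11.7, 18.9 and 13.2 CPM in cKO and 21.6, 20.8 and 21.8 CPM in wt. Its wt values were close together and its cKO values spread below them (-0.54 ± 0.17, edgeR adjusted p = 0.754). Slc2a5, the fructose transporter that microglia express, was at 2.56, 2.8 and 2.24 CPM against 3.24, 5.41 and 4.03 CPM (-0.71 ± 0.21, 95% interval -1.16 to -0.25). Fcrls, an Fc receptor-like protein of resident microglia, was at 27.1, 27.5 and 31.1 CPM against 31.2, 35.3 and 36 CPM (-0.27 ± 0.11, 95% interval -0.50 to -0.04), with cKO library 3 just under wt library 1.

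The 1 higher gene was Irf8, a transcription factor of the myeloid lineage, at 7.1, 7.77 and 4.98 CPM in cKO and 4.75, 5.36 and 3.46 CPM in wt, with cKO library 3 inside the wt range (0.59 ± 0.21, edgeR adjusted p = 0.754). The other identity genes named here overlapped between the groups. Tmem119, a microglial surface protein, was at 12.5, 15.4 and 12.6 CPM against 12.6, 16.9 and 16.7 CPM (-0.18 ± 0.14). Csf1r, the growth factor receptor on which microglia depend, differed by -0.12 ± 0.09 and the complement gene C1qa by 0.02 ± 0.13. Of 20 measured genes of disease-associated microglia, 0 were higher and 0 lower, with a median of 0.03, or 2 higher and 0 lower without cKO library 3. On the contralateral side the identity list had 0 higher and 0 lower and a median of -0.05; there Gpr34 was at 6.96, 8.57 and 8.14 CPM in cKO and 7.35, 7.81 and 11 CPM in wt (-0.15 ± 0.19). The difference between the sides for Gpr34 was -0.61 ± 0.27 (edgeR adjusted p = 1).

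**Figure D3:**
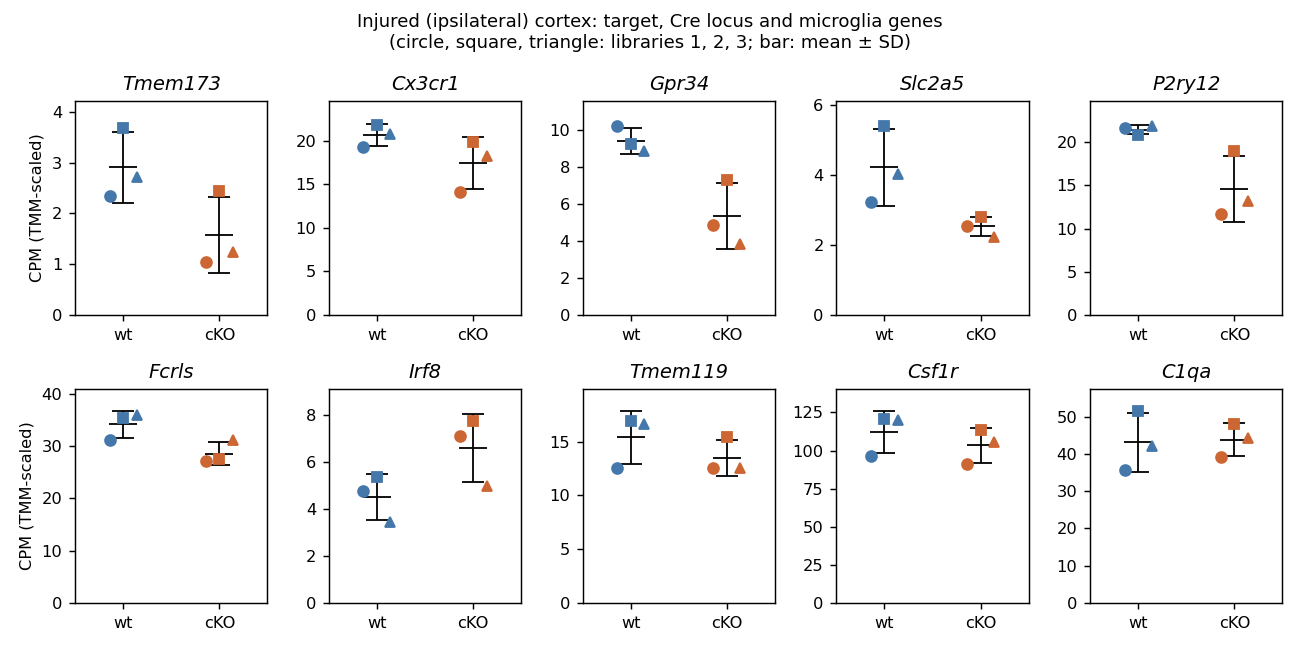
CPM of Tmem173, Cx3cr1 and 8 microglial genes in the 3 cKO and 3 wt ipsilateral libraries (y axes from 0; circle, square and triangle are libraries 1, 2 and 3; the line and bar are mean and SD). Gpr34, Slc2a5, P2ry12 and Fcrls have all cKO points below all wt points, Tmem173 and Tmem119 overlap, and Irf8 lies mostly the other way.

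Glucocorticoid-responsive genes made up the list with the largest share at an unadjusted p under 0.05 in the higher direction among the 33 lists. These are genes that the glucocorticoid receptor switches on when it binds corticosterone, the main stress steroid of mice. The lists and their members were chosen with earlier results of these data known. The share, its rank and the small p-values below therefore only describe this list and its members. All 22 were measured, 19 lay above 0, 11 were higher (50%) and 0 lower, and in 9 all cKO values lay above all wt values (5.6% of all genes did so). The median was 0.26. Leaving out each ipsilateral library in turn gave 8 to 13 higher, 0 lower and a median of 0.19 to 0.33. Under the 3 other scalings the median was 0.26 with DESeq2 size factors, 0.30 with library totals and 0.34 on the TPM scale.

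Among them were 5 of the 10 genes with the smallest p of all genes at 1 CPM or more. Hif3a (chr7:17031507-17062427), a hypoxia-inducible factor subunit, was at 5.15, 5.45 and 3.98 CPM in cKO and 2.54, 3.18 and 2.47 CPM in wt (0.86 ± 0.17, 95% interval 0.50 to 1.23). Cdkn1a (chr17:29090976-29100727), the cell cycle inhibitor p21, was at 88.5, 88.5 and 83.7 CPM against 65, 69.1 and 62.3 CPM (0.41 ± 0.08, 95% interval 0.24 to 0.58). Map3k6 (chr4:133240818-133252929), a stress kinase, was at 14.1, 11.8 and 11.2 CPM against 8.07, 7.38 and 7.74 CPM (0.69 ± 0.15, 95% interval 0.38 to 1.0). In all 3 genes every cKO library lay above every wt library.

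Fkbp5 (chr17:28399094-28517527), a cochaperone that damps the glucocorticoid receptor, was at 42.4, 48.8 and 35.7 CPM in cKO and 24.8, 29.1 and 26 CPM in wt (0.68 ± 0.15, 95% interval 0.36 to 1.0). Plin4 (chr17:56100591-56109803), a lipid droplet coat protein, was at 6.85, 7.05 and 7.84 CPM against 2.95, 4.08 and 2.26 CPM (1.21 ± 0.27, 95% interval 0.63 to 1.80). Neither gene overlapped between the groups. The edgeR adjusted p of all 5 was 0.577, and DESeq2 gave an adjusted p of 0.0328 for Plin4, Hif3a, Map3k6 and Fkbp5 and 0.0286 for Cdkn1a.

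The metallothioneins, zinc-binding proteins, also lay higher. Mt2 was at 113, 106 and 92.3 CPM in cKO and 70.1, 90.1 and 70.4 CPM in wt (0.44 ± 0.10, 95% interval 0.22 to 0.66), and Mt1 at 178, 178 and 152 CPM against 129.6, 162 and 139 CPM (0.24 ± 0.09), where wt library 2 lay above cKO library 3. Zbtb16, a zinc-finger transcription factor, was at 50.3, 59.2 and 67 CPM against 34.5, 39.7 and 42.2 CPM without overlap (0.59 ± 0.15). Tsc22d3, the glucocorticoid-induced leucine zipper, was at 122, 136 and 119 CPM against 99, 102 and 109 CPM without overlap (0.29 ± 0.08). Klf15, a metabolic transcription factor, was likewise separated (0.28 ± 0.13). Not every member lay apart: the kinase Sgk1 differed by 0.10 ± 0.15, the clock gene Per1 by -0.08 ± 0.08, the phosphatase Dusp1 by -0.15 ± 0.12 and the transcription factor Klf9 by 1.3e-05 ± 0.11. Why these 4 were not higher was not tested.

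**Figure D4:**
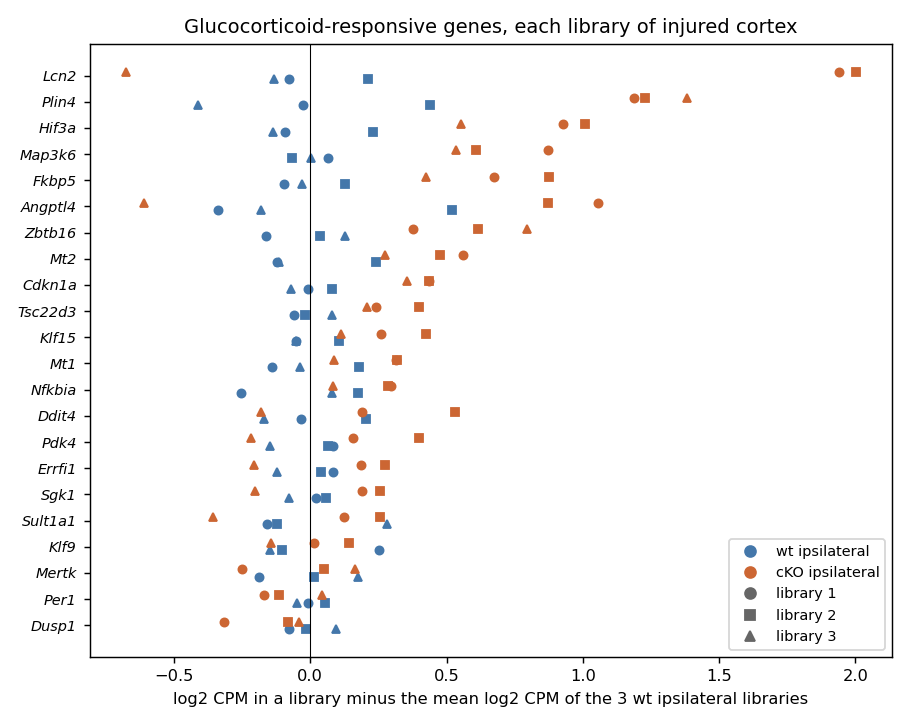
Log2 CPM of the 22 glucocorticoid-responsive genes in each ipsilateral library, less the mean log2 CPM of the 3 wt libraries (x axis). In 9 genes, Plin4, Hif3a, Map3k6, Fkbp5, Zbtb16, Mt2, Cdkn1a, Tsc22d3 and Klf15, all 3 cKO points lie right of all 3 wt points, and for Sgk1, Per1, Dusp1 and Klf9 they mix.

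The promoter windows of the glucocorticoid-responsive genes were searched for ACANNNTGT, the core letters of a glucocorticoid receptor element, on either strand. Of the 20 members with a RefSeq window in GRCm38.p6, 4 held it, against 7.9% of all 27025 genes. The matching stretches are shown with the match in capitals, 5′ to 3′ on the gene's strand: Map3k6 from chr4:133240609-133240677 (plus), Mt1 from chr8:94178967-94179035 (plus), Lcn2 from chr2:32387853-32387921 (minus) and Sgk1, which has annotated starts with a match at 2 places, from chr10:21978515-21978583 and chr10:21993674-21993742 (plus). Map3k6, Mt1 and Lcn2 were among the higher genes and Sgk1 was not. The windows of Hif3a, Fkbp5, Plin4 and Cdkn1a do not hold these letters, which says nothing of elements elsewhere. A match describes the letters and is no evidence of binding in these samples, and action of the receptor was not tested.
Map3k6: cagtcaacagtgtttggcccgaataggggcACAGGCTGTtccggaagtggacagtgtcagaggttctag
Mt1: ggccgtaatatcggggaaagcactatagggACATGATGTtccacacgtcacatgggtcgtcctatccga
Lcn2: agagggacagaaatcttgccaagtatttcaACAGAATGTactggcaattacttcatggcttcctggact
Sgk1 (upstream start): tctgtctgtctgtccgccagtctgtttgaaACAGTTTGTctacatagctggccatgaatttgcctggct
Sgk1 (downstream start): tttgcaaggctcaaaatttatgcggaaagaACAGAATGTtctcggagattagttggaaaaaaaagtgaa

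The same list had 7 higher (1.55% of all genes were) and 0 lower (1.15% of all genes) in contralateral cortex, with a median of 0.15. Those values come from other libraries of the same genotypes, which may be the other side of the same mice. The labels do not say, so the 2 sides cannot be counted as independent. Fkbp5 was at 63.8, 60.6 and 44.9 CPM in cKO and 43, 46.1 and 33.4 CPM in wt contralaterally (0.47 ± 0.14), Plin4 at 9.36, 8.22 and 5.62 CPM against 2.24, 4.84 and 3.03 CPM (1.21 ± 0.26), and Hif3a at 4.78, 4.22 and 4.86 CPM against 2.93, 2.7 and 2.58 CPM (0.75 ± 0.16). The differences between the sides were 0.21 ± 0.21, 0.01 ± 0.37 and 0.11 ± 0.23 for these 3 genes. Mt2 differed by 0.05 ± 0.10 contralaterally, and its difference between the sides was 0.39 ± 0.15 (edgeR adjusted p = 1). Zbtb16 differed by 0.18 ± 0.15 there (0.41 ± 0.21 between sides).

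Others of the 10 smallest p were outside that list. Dpysl5 (chr5:30711564-30799375), a collapsin response mediator of growing neurites, was at 21.9, 22.7 and 22.9 CPM in cKO and 15.1, 17.3 and 13.8 CPM in wt (0.55 ± 0.12), with every cKO library above every wt library.

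Adgrl2 (chr3:148815583-148990555), the synaptic adhesion receptor latrophilin 2, was at 57.3, 55.9 and 64.1 CPM in cKO and 84.3, 78.3 and 79.8 CPM in wt (-0.46 ± 0.10). Rasd2 (chr8:75213944-75224113), a small GTPase rich in striatum, was at 78.3, 74 and 81.1 CPM against 104, 101 and 105 CPM (-0.41 ± 0.09). Scn4b (chr9:45138395-45154152), a sodium channel beta subunit, was at 127, 88.1 and 105 CPM against 158, 151 and 153 CPM (-0.52 ± 0.12). These 3 had every cKO library below every wt library. On the contralateral side the 4 differed by 0.04, -0.18, -0.02 and -0.11 in that order.

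Heat shock chaperones lay mostly above 0 by small amounts. Of 21 measured, 20 were above 0 and 3 were higher (14.3%) and 0 lower, with a median of 0.10, or 13 above 0 and a median of 0.01 without cKO library 3. Without cKO library 2 there were 7 higher. Hspa1b and Hspa1a, the inducible HSP70 genes, are near-identical copies whose reads may have been split between them. Hspa1b was at 64.8, 100.3 and 51.3 CPM in cKO and 33.2, 49.3 and 35.1 CPM in wt (0.90 ± 0.21, 95% interval 0.44 to 1.35) and Hspa1a at 88.4, 118 and 57.1 CPM against 41.7, 61.2 and 47.7 CPM (0.82 ± 0.22, 95% interval 0.36 to 1.29). In both, cKO library 2 was the highest, and only Hspa1a overlapped, where wt library 2 lay above cKO library 3. Dnajb1, their cochaperone, differed by 0.26 ± 0.10, and the constitutive Hspa8 by 0.09 ± 0.09. Of 22 genes of the unfolded protein response, 1 was higher, Sesn2, a stress sensor (0.28 ± 0.10), and the median was 0.14. Leaving out each ipsilateral library in turn gave 0 to 4 higher and a median of 0.057 to 0.23, the lowest without cKO library 3.

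Lists of neuronal activity and identity had medians near 0, with a few genes apart. Of 40 immediate early genes, 2 were higher and 1 lower, with a median of -0.01, or 2 higher and 3 lower and -0.08 without cKO library 3. Leaving out each ipsilateral library in turn gave 0 to 4 higher and 0 to 3 lower, and the median was 0.054 without cKO library 1. The lower gene was Dusp6, the phosphatase of ERK, at 80, 103 and 124 CPM in cKO and 151, 124 and 135 CPM in wt (-0.43 ± 0.16, 95% interval -0.78 to -0.09). Npas4, a factor induced by synaptic calcium, was at 66.8, 108 and 193 CPM against 152, 172 and 192 CPM; its cKO libraries were spread from under the wt range to its top (-0.51 ± 0.26, and -0.98 without cKO library 3). Fos was at 263, 310.1 and 319 CPM in cKO and 343, 355 and 325 CPM in wt, all lower but by -0.20 ± 0.12 (95% interval -0.45 to 0.06).

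Of 20 pan-neuronal genes 0 were higher and 4 lower (20%), with a median of -0.05 that was 0.10 on the TPM scale, under the all-gene 0.16 there. There was 1 lower without cKO library 1 and 2 without wt library 3. Snap25, a SNARE of synaptic vesicle release, was at 2938, 3070.3 and 2952 CPM in cKO and 3855, 3254 and 3556 CPM in wt (-0.25 ± 0.06, edgeR adjusted p = 0.614), a small and narrow difference without overlap. Of 24 cortical layer markers 3 were higher and 2 lower, 16 lay below 0, and the median was -0.02. Leaving out each ipsilateral library in turn gave 0 to 3 higher, 1 to 4 lower and a median of -0.11 to 0.075, with 2 higher and 4 lower without cKO library 3 and 0 higher without wt library 3. Rorb, the layer 4 transcription factor, was at 42.1, 38.1 and 41.3 CPM against 66.3, 47.4 and 60.2 CPM (-0.52 ± 0.15, 95% interval -0.84 to -0.20), below in every library. Of markers of deep layers, Crym (33.9, 29.6 and 29.5 against 21.1, 25.4 and 18.8 CPM, 0.52 ± 0.19), Fezf2 (0.32 ± 0.13) and Ntsr1 (0.66 ± 0.25) were the 3 higher genes, Ntsr1 with overlap. Other deep-layer markers overlapped and lay on both sides of 0, Tbr1 by -0.16 ± 0.10, Tle4 by -0.03 ± 0.14 and Bcl11b by 0.18 ± 0.14.

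Markers of striatum, which lies beneath the cortex, varied between libraries of both groups. Of 16 measured, 0 were higher and 5 lower (31.2%), none without overlap. All 17 listed genes summed to 474 to 532 CPM in cKO and 511 to 644 CPM in wt. Adora2a, the adenosine receptor of striatal output neurons, was at 3.32, 1.68 and 1.24 CPM in cKO and 5.65, 7.12 and 2.18 CPM in wt (-1.15 ± 0.43), and wt library 3 was much closer to the cKO libraries than to wt 1 and 2. The count was 0 without wt library 2, 1 without cKO library 2, 2 without cKO library 3 or wt library 1, and 9 without wt library 3. Rasd2 and Scn4b, above, are also rich in striatum. The part of striatal content in their values was not tested.

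Mitochondrially encoded transcripts lay lower in cKO: of 13 measured, 0 were higher and 8 lower (61.5%), with a median of -0.35. Their share of all counts was 5.31%, 7.56% and 5.73% in cKO libraries 1, 2 and 3 and 6.91%, 8.16% and 7.95% in wt, so that cKO library 2 lay within the wt range. Without cKO library 3 the count was 2 lower, without wt library 2 also 2, and without cKO library 1 it was 1 lower and 1 higher. On the contralateral side the median was -0.12, with 2 higher and 0 lower.

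Endothelial and mural markers were mostly below 0 by CPM: 2 were higher and 5 lower of 20, with a median of -0.14 that was 0.056 on the TPM scale. Tek, the angiopoietin receptor, was at 12, 11.6 and 11.8 CPM in cKO and 13.8, 15.8 and 18.8 CPM in wt without overlap (-0.45 ± 0.13, edgeR adjusted p = 0.751), and Kdr, the VEGF receptor, differed by -0.48 ± 0.20. Slc2a1, the glucose transporter of the blood-brain barrier, lay higher without overlap (0.23 ± 0.10). Without wt library 1 there were 11 lower, without wt library 2 or cKO library 2 there were 3, and without wt library 3 or cKO library 1 there was 1. Of 15 astrocyte markers 0 were higher and 3 lower, led by the glypican Gpc5 (-0.37 ± 0.10), and of 32 astrocyte reactivity genes 4 were higher and 1 lower. The 4 became 1 without cKO library 1, 2 without wt library 1 and 6 without cKO library 3. Those 4 were Fkbp5, Lcn2, the metalloreductase Steap4 (1.37 ± 0.47) and Gfap, the astrocyte filament protein, at 189.6, 166 and 142 CPM against 110.4, 157 and 110.2 CPM (0.40 ± 0.14). Oligodendrocyte and myelin genes had 0 and 0 of 20, and 15 reference genes 0 and 0 with a median of 0.01.

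**Figure D5:**
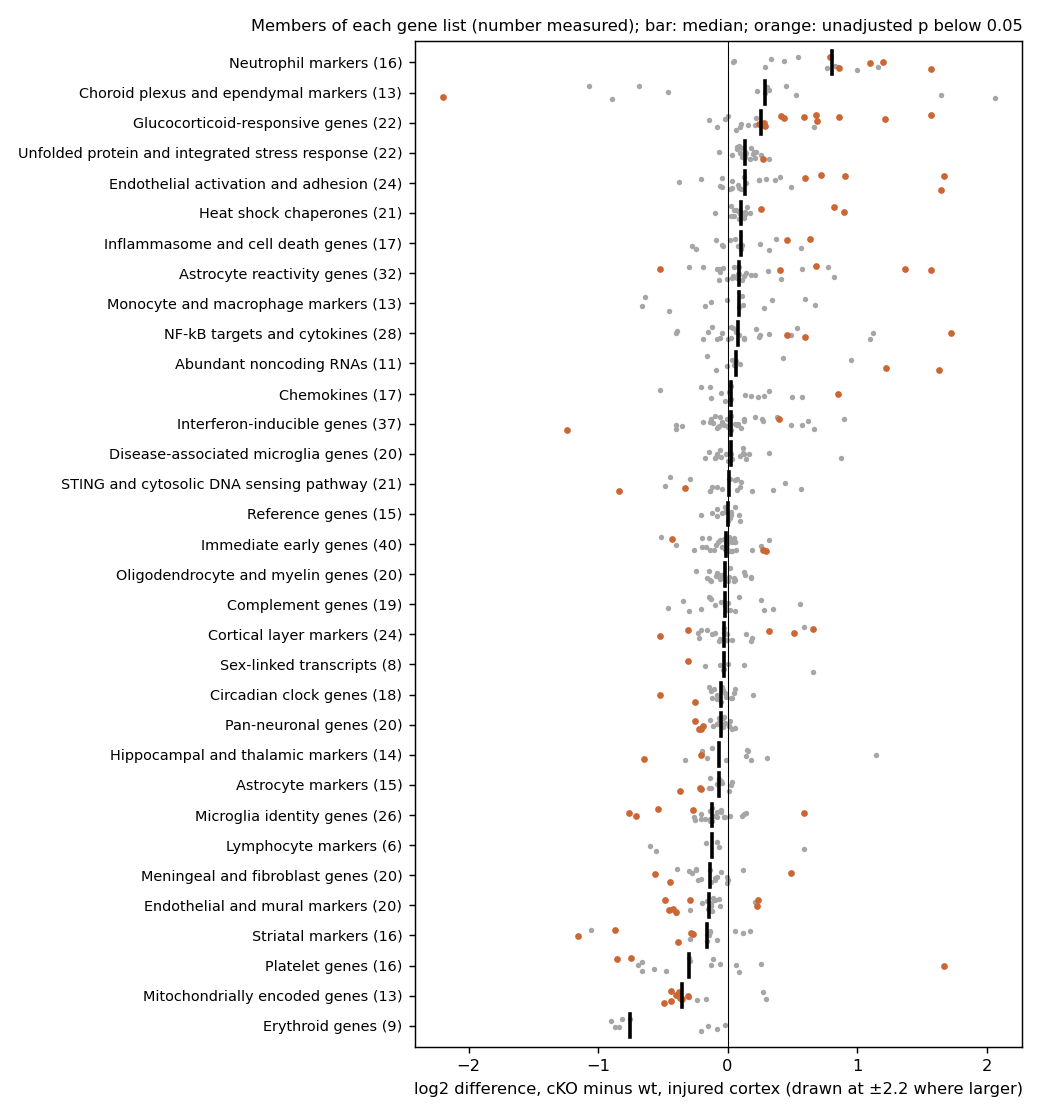
Log2 difference between cKO and wt in ipsilateral cortex (x axis, values beyond 2.2 drawn at 2.2) for every measured member of the 33 gene lists, 1 list per row, with a bar at the list's median and members with an unadjusted p under 0.05 in orange. The glucocorticoid and neutrophil rows lie right of 0, the erythroid and mitochondrially encoded rows left of it, and most other medians are near 0.

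Genes with a higher level on the injured side were looked at as a group, chosen by the side difference pooled over both genotypes. That choice is not free of the genotype difference, because a high ipsilateral level in cKO can carry a gene over the cut. Osgin1, for example, had means of 1.09 CPM ipsilaterally and 0.738 CPM contralaterally in wt, and 1.89 and 0.682 CPM in cKO. The count of higher genes below is therefore descriptive. Of the 280 genes at least 2-fold higher ipsilaterally, 30 were higher (10.7%) and 1 lower (0.357%) in cKO at an unadjusted p under 0.05, against 2.83% and 3.04% of all genes. Their median was 0.10, with quartiles of -0.07 and 0.39. In 18 all cKO libraries lay above all wt libraries and in 6 all lay below, where 5.6% and 5.99% of all genes did so, so that the share without overlap on the higher side was close to that of all genes. For 156 the 95% interval lay inside 2-fold. Without cKO library 3 the count was 41 higher and 6 lower and the median 0.18. Of the 10 largest injury effects, Selp, Csf3, Cxcl2, Ccl3, Ccl4 and Il1a are given above. Others were the lectin receptor Clec4e (1.16 ± 0.63), Trem1, an amplifier receptor of myeloid cells (1.0 ± 0.49), and Acod1, the enzyme that makes itaconate, at 1.62, 3.48 and 0.622 CPM against 1.19, 2.1 and 0.905 CPM (0.56 ± 0.48). None of these 3 was separated between the groups.

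Whether the genotype difference depended on the side was tested directly as the difference of differences. By edgeR's quasi-likelihood test 0 genes passed (0%), with a smallest adjusted p of 0.99987 and 381 genes at an unadjusted p under 0.05, 197 higher ipsilaterally (1.17%) and 184 lower (1.09%). In contralateral cortex alone 0 genes passed (0%), with 455 at an unadjusted p under 0.05. Neutrophil, adhesion and NF-kB lists had contralateral medians of 0.06, -0.05 and -0.03, on levels that were far lower there: the neutrophil sum was 12.4 to 17.1 CPM in cKO and 10.8 to 11.7 CPM in wt. Lcn2 of the neutrophil list differed there too, at 2.76, 7.54 and 0.714 CPM in cKO and 0.967, 0.795 and 0.486 CPM in wt (2.28 ± 0.72). Its difference between the sides was -0.71 ± 0.92.

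Genes near the floxed locus were counted separately. Of 180 tested genes within 10 Mb of Tmem173, 5 were higher (2.78%) and 3 lower (1.67%), with a median of 0.0075. Over all genes these shares were 2.83% and 3.04%.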

How the data were processed

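The submitters' processing notes name Trim Galore 0.6.4, STAR 2.7.1a with the mm10 build, and RSEM 1.2.28, whose estimated counts the authors deposited as whole numbers. TPM values were deposited beside the estimated counts by the authors, per the file headers. The notes also name DESeq2 1.36.0. The annotation and strand setting are not given in the sources used here; the library kit was stranded, per the labels' protocols. Identifiers were matched to GENCODE M21 (99.4% matched), which gave coordinates in mm10 and overlaps.

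With R 4.3.3 and edgeR 4.0.16, genes were kept by filterByExpr (minimum count 10, minimum total 15; 16836 of 55487), scaled by the trimmed mean of M values, and fitted by quasi-likelihood over the 12 libraries in 4 groups of 3, so that all groups shared 1 estimate of spread. The contrast was cKO minus wt ipsilaterally, with contralateral and difference-of-sides contrasts from the same fit, and p-values were adjusted over all genes by the Benjamini-Hochberg method at 0.05. Standard errors and 95% intervals came from the fit. Its total degrees of freedom had a median of 14.7, counting those borrowed from the spread shared across genes. Tmem173 and Cx3cr1 also had an exact permutation test.

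The 33 gene lists, the members and the comparison were chosen with earlier results of these data known, and some genes are on more than 1 list. Genes named by rule were Tmem173, Cx3cr1, the 10 smallest p at 1 CPM or more, the 10 largest pooled injury effects and, per list, the smallest p and the most abundant members; a few of these are not reported here, and other named members were chosen after their values were seen. Alternatives were DESeq2 size factors, library totals, all genes unfiltered, a stricter filter (at least 1 CPM in 3 libraries and a total of 100), DESeq2 1.42.0, limma 3.58.1 voom with and without quality weights, limma on log2 of TPM plus 1 (mean of at least 1 TPM), the 6 ipsilateral libraries only, a replicate block, each library left out, and, added after seeing the data, removal of GC content and length trends (span 0.3). On simulated counts for this contrast (16836 genes) the code recovered 52% of 50 genes changed 1.5-fold and 90% of 50 changed 2-fold, with 7 false calls among all genes. The same counts held 50 genes changed 4-fold and 50 changed 8-fold, all recovered, which eases the adjusted threshold for the rest. They were drawn from a model in which no library stood apart except by depth. The recovery therefore checks the code and does not give the power of the real contrast. Promoter windows were RefSeq's.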

Additional observations from a re-analysis of the deposited data

How the results depend on the processing

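Counts of called genes moved with the filter and the tool and with nothing else that was run. Without a filter edgeR called 223 genes between genotypes (119 higher, 104 lower) and 72 for the difference between the sides; of the 223, 117 had overlapping groups, and in that fit the degrees of freedom were 235504 against 14.7. DESeq2 called 12 genes between genotypes. limma on log2 TPM called 1 gene in either comparison, the small nucleolar RNA Snord15b (5.44), which the main filter removes. At an unadjusted p under 0.05 the count was 987. Leaving out each library in turn gave counts of 0 to 0 in both comparisons, with 762 to 1280 genes at an unadjusted p under 0.05 between genotypes, and log2 differences of -1.39 to -0.54 for Tmem173 and -0.39 to -0.11 for Cx3cr1. None of the other settings called a gene, and each kept both genes below 0.

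Between the ipsilateral groups, same-numbered libraries had correlations of 0.047, -2.9e-05 and 0.12 after removal of group means. Those of unlike number were at -0.14 to 0.088, so the highest value was a same-numbered one. Whether the numbers mark pairs cannot be told from so few values, and the main fit did not use them. Between the sides, same-numbered libraries were at 0.071, 0.092 and 0.057 in cKO and at -0.002, 0.094 and 0.046 in wt. Libraries of unlike number were at -0.073 to -0.0012 between the sides in cKO and at -0.11 to 0.061 in wt. With the replicate block, edgeR called 0 genes between genotypes and 0 between the sides, Tmem173 was -0.90 (adjusted p = 0.67) and Cx3cr1 -0.26 (0.706). With genotype and replicate number together as a block, 0 genes differed between the sides. With GC content and length trends removed, 0 genes were called in either comparison.

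The TPM scale moved the median of all genes to 0.16 and library totals moved it to 0.042, so list medians near 0 change sign there. Depth limits low genes: in cKO library 3 the floor of 3 counts was 0.373 CPM, and the selectins, Csf3 and most neutrophil markers lay within a few CPM of it.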

Other observations

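Some genes not named above also had small p-values, all without a call by edgeR. Cebpb, a transcription factor of acute inflammation and 1 of the 280 genes higher on the injured side, was at 9.08, 11.6 and 11.2 CPM in cKO and 5.94, 7.68 and 6.5 CPM in wt, every cKO library above every wt library (0.65 ± 0.16, 95% interval 0.32 to 0.99). Mylk, the myosin light chain kinase of smooth muscle, was at 10.4, 9.89 and 12.1 CPM against 16.4, 14.6 and 16.1 CPM (-0.56 ± 0.13). Of 20 meningeal and fibroblast genes 1 was higher and 2 lower, with 0 lower without cKO library 1, 6 without cKO library 2 and 4 without wt library 1. Col3a1, a fibrillar collagen, differed by -0.56 ± 0.20 without overlap and by -0.49 contralaterally. Of 18 circadian clock genes 0 were higher and 2 lower, Rorb and Npas2 (-0.25 ± 0.08), a partner of the clock factor BMAL1.

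Single libraries stood out in a few genes. Ttr, transthyretin of the choroid plexus, was at 0.865, 0 and 0 CPM in cKO and 0.0819, 37.3 and 1.56 CPM in wt, where wt library 2 held nearly all of it. Among abundant noncoding RNAs, Rmrp differed by 1.63 ± 0.67 and Rn7sk by 1.23 ± 0.54, both with overlap, and the copies of such RNAs elsewhere in the genome make their counts uncertain. Bbc3, the p53 target PUMA, had the smallest p of 17 measured inflammasome and cell death genes (0.63 ± 0.25, 95% interval 0.09 to 1.17), with overlap.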
